A study of Mus musculus with 15 samples.

Results

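Mitosis and spindle genes encode the proteins that take a cell from the end of G2 through chromosome segregation to cytokinesis. The set was chosen by name, by a rule that used no measured value although earlier results of these data were known, and held 38 genes, of which 37 were measured among the 19937 genes tested. Ccnb1, the gene of cyclin B1, has no probe set under its symbol in the platform annotation used here and is not analysed here. Where a gene had several probe sets, the brightest over all arrays was taken. Expression was measured on Affymetrix Mouse Gene 1.0 ST arrays in D1 cells, a long-term line of splenic dendritic cells (DCs) of the C57BL/6 strain grown in medium with GM-CSF from transfected NIH3T3 fibroblasts. All 5 groups were cells of this single line, with 3 arrays each: nontreated cells, cells given the beta-glucan curdlan (10 µg/ml), which binds the receptor dectin-1, over 2 h or 4 h, and cells that received FK506, an inhibitor of the phosphatase calcineurin and so of the NFAT transcription factors, along with curdlan over the same 2 times. FK506 without curdlan is not analysed here, and the same 3 nontreated arrays served every comparison with nontreated cells. The labels give no time for these nontreated arrays. Time in culture and curdlan therefore cannot be told apart in those comparisons or in the steps from 2 h to 4 h.

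A cell enters mitosis when cyclins activate the kinase Cdk1. Polo and Aurora kinases then build the spindle, the checkpoint holds chromosome segregation until all kinetochores are attached to microtubules, and the anaphase-promoting complex (APC/C) releases the block by marking securin and cyclins for destruction. Most of these genes are transcribed mainly in late S, G2 and M phase, through promoters in which CCAAT boxes, bound by NF-Y, and a cell cycle homology region (CHR), bound by the MuvB complexes, lie near the start site. A proliferating line such as D1 therefore carries their transcripts, and in a mixed population their level follows both the number of cells in G2 and M and the amount of RNA per cell.

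The promoter sequences were searched for these elements. In the RefSeq table of build GRCm38.p6, with 250 bases before and 50 after each annotated start, 31 of the 38 members had a promoter, 1 of them (Prc1) had 2, and Aurkb, Ccna2, Cdc25c, Foxm1, Incenp, Kif20a and Tpx2 had none. A CHR (TTTGAA, either strand) was found in 23 of the 32 member promoters (71.9%) and in 17.9% of all 32851 promoters of the same length. A CCAAT box (CCAAT, either strand) was found in 24 of 32 (75%) against 37.4%, and both together in 20 of 32 (62.5%) against 6.95%. E2F-type sites (TTTCCCGC, TTTGGCGC or TTTCGCGC, either strand) were matched in 1 member promoter, that of Cdk1 (3.12%, against 1.84%), and the NFAT core GGAAAA in 5 of 32 (15.6%, against 23.4%). Of the 28 CHR matches in member promoters, 22 (78.6%) began no more than 60 bases before the start site or after it, against 28.2% of the 6737 CHR matches in all promoters. A match is only a string of letters, and no occupancy of these sites was measured on the arrays. The stretches below are shown for members that differed under curdlan: Kif23 and Ttk were among the 6 members that fell most, Cdk1 was lower by a smaller amount, and Cdc20 was not lower at all after 4 h. Capitals mark CHR (TTTGAA, or TTCAAA when read from the other strand) and CCAAT (or ATTGG) matches, each written 5′ to 3′ along the gene.
Kif23 (chr9:61946777-61946821, minus strand): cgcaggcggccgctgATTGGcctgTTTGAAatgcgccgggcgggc
Ttk (chr9:83834609-83834716, plus strand): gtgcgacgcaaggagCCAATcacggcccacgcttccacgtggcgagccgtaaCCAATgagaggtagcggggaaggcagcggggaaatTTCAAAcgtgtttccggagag
Cdk1 (chr10:69352907-69353135, minus strand): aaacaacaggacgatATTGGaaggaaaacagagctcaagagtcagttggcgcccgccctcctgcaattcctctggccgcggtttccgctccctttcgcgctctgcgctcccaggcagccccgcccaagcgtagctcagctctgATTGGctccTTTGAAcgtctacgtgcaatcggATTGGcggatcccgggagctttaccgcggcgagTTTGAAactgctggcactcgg
Cdc20 (chr4:118437332-118437411, minus strand): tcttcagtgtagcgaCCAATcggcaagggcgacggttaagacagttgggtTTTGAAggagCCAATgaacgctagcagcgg
In Kif23 the CCAAT box and the CHR lay within a few bases of each other across the start site, while in Cdk1 a pair of CHR matches alternated with CCAAT boxes.

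Array quality bears on small changes, so it was looked at first. Array medians over all probe sets lay between 6.45 and 6.57 on the log2 scale. Over the tested genes they spread more widely, from 6.67 (curdlan with FK506 2 h, replicate 1) to 6.94 (nontreated replicate 1). Among the arrays 0 pairs were identical. A pair of arrays deviated from their groups, namely the nontreated array of replicate 1 (array weight 0.0781) and the curdlan 2 h array of replicate 3 (0.119). On nontreated replicate 1, 32 of 37 members were below their own group mean, and on curdlan 2 h replicate 3, 31 of 37 were. Counts without both arrays are given with each comparison below. In these groups the weights fell mostly on 1 array each, nontreated replicate 2 (5.42) and curdlan 2 h replicate 1 (6.87). The remaining arrays had weights of 0.707 (nontreated replicate 3) and 0.744 (curdlan 2 h replicate 2). Counts with array weights therefore rest largely on 1 array in each of these groups. Of the DC markers, Itgax (mean log2 level 12.1 in nontreated cells), Cd74 (12.7) and H2-Ab1 (12.8) were high and Flt3 (5.93) was low. The macrophage genes Adgre1 (11.7) and Cd68 (11.4) were high as well. With a fold of 1.5, 3 of 15 DC markers passed as higher and 1 as lower after 2 h of curdlan (2.20% and 1.40% of all genes). After 4 h of curdlan 4 passed as higher and 0 as lower (5.05% and 4.15%). No macrophage marker passed against nontreated cells with curdlan alone. With FK506 against curdlan alone 1 of 7 macrophage markers passed as lower, by -1.53 at 2 h (0.762% of all genes) and -2.20 at 4 h (1.53%). None of the fibroblast, T cell, B cell, NK cell, neutrophil or mast cell markers passed the test with a fold of 1.5 in curdlan-treated against nontreated cells at either time. Their list medians at 4 h lay between -0.22 and -0.08, beside -0.12 for all genes. These values concern changes between groups and do not show whether such cells were present. All 37 members had a mean level above the median of all genes (6.76), the dimmest being Ttk (7.82).

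The main comparison set the members in cells given curdlan for 4 h against nontreated cells, which were not matched in time. Throughout, a gene is said to have fallen or risen where limma gave a Benjamini-Hochberg adjusted p under 0.05 over all 19937 genes and the fold change was 1.5 or more (0.58 on the log2 scale), and a weaker statement, lower or higher at the adjusted p alone, is used where the fold was not reached. After 4 h of curdlan 13 of 37 members had fallen, where 4.15% of all genes had, and 0 had risen, where 5.05% of all genes had. At the adjusted p alone 34 of 37 were lower (23.2% of all genes). The median log2 fold change over the members was -0.55, against -0.12 for all genes tested, and in 35 of 37 members every curdlan 4 h array lay below every nontreated array (33.5% of all genes). The exceptions to this separation were Cdc20 and Pttg1. Whether fewer cells were in G2 and M or each such cell held less of these transcripts cannot be told apart in RNA from whole cultures. Without the 2 outlying arrays 18 members had fallen, and with each array centred on the median of the tested genes 7 had, while over all genes this centring moved the calls from 828 lower and 1007 higher to 545 lower and 1300 higher.

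**Figure D1:**
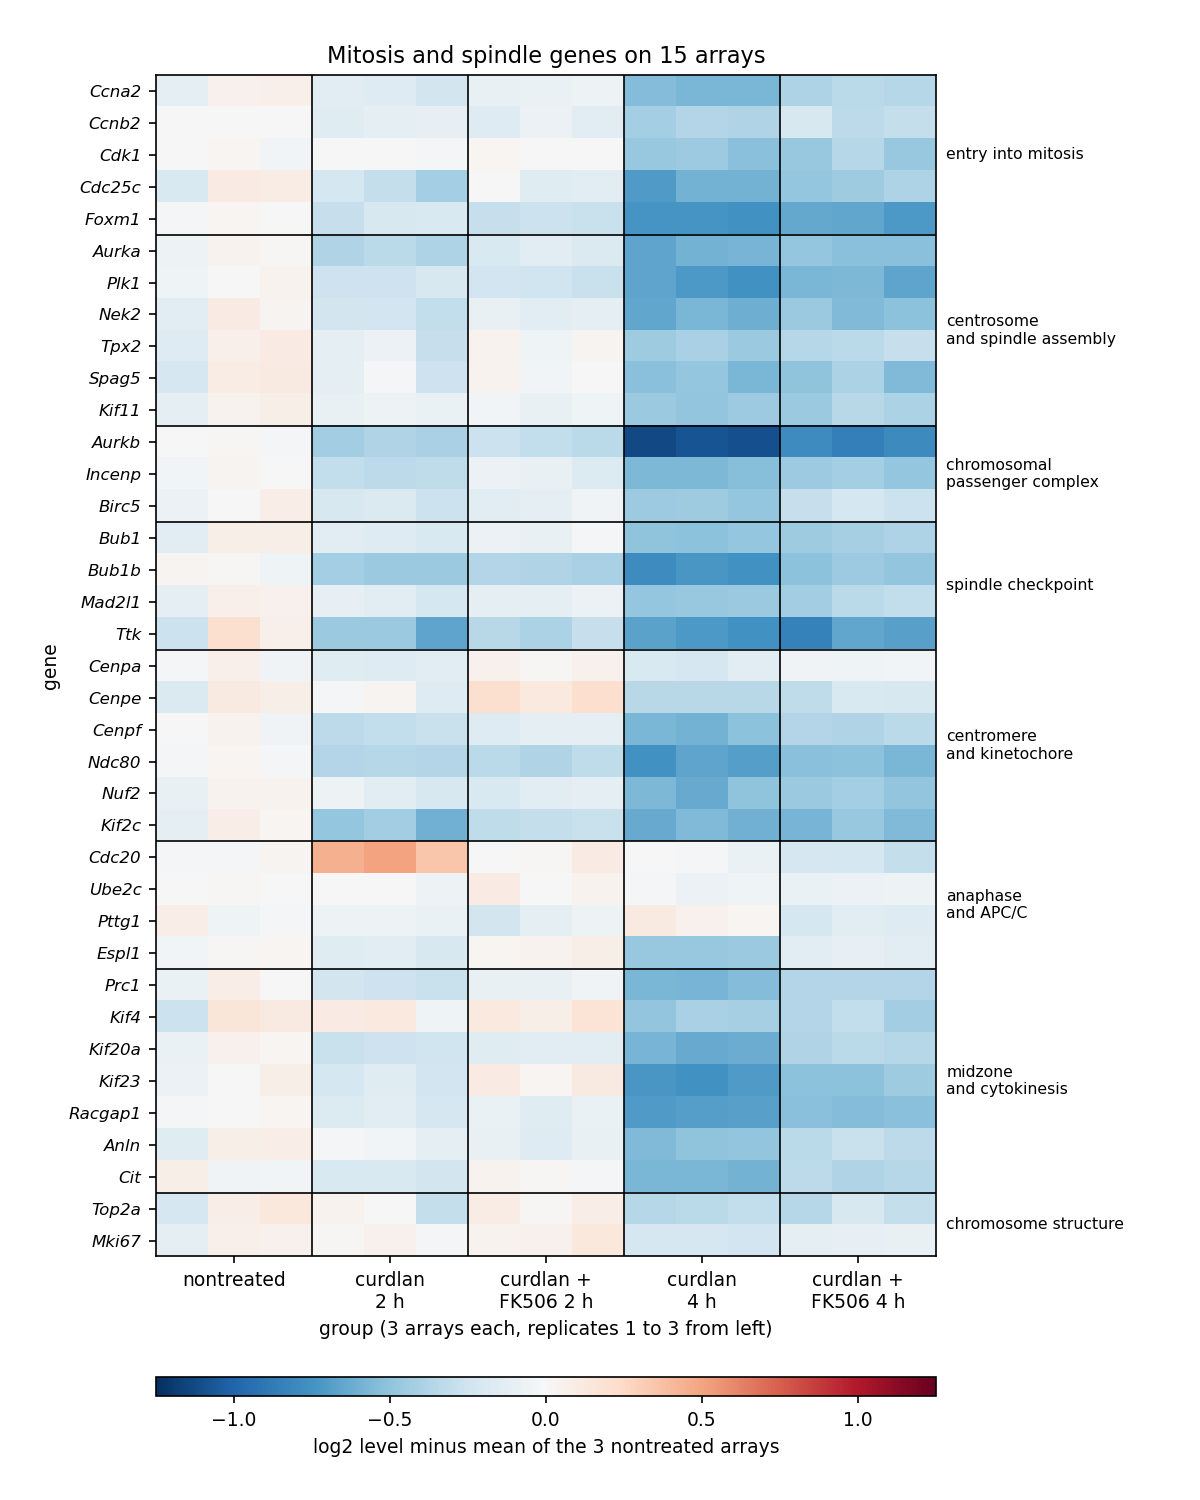
Log2 level of each of the 37 measured members (rows, grouped by role) on each of the 15 arrays (columns, 3 per group), minus the mean of the 3 nontreated arrays of that gene, with blue for lower and red for higher. The curdlan 4 h columns were blue for all genes but Cdc20, Ube2c and Pttg1, the member median of these 3 arrays being -0.55, -0.55 and -0.52, and the columns with FK506 for 4 h were paler (-0.44, -0.37 and -0.38).

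The chromosomal passenger complex, which corrects faulty attachments of chromosomes to the spindle and later guides cytokinesis, contained the member with the largest fall. The log2 level of Aurkb, the kinase of this complex, was 11.42, 11.43 and 11.40 on the nontreated arrays, 10.98, 11.04 and 11.01 with curdlan for 2 h, 10.28, 10.33 and 10.31 with curdlan for 4 h, 11.15, 11.11 and 11.08 with curdlan and FK506 for 2 h, and 10.63, 10.56 and 10.62 with both for 4 h. The 5 groups did not overlap for this gene and lay in the order nontreated, curdlan with FK506 2 h, curdlan 2 h, curdlan with FK506 4 h and curdlan 4 h. The difference between curdlan 4 h and nontreated cells was -1.10 ± 0.04 (log2, SE, 3 arrays per group, limma adjusted p = 5.13e-11), a 2.15-fold fall. Incenp, the scaffold of the complex, was 1.47-fold lower and Birc5 (survivin) 1.38-fold lower, both at the adjusted p alone.

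Spindle checkpoint genes fell in 2 of 4 cases (4.15% of all genes), with a median of -0.61. The log2 level of Bub1b, which encodes the checkpoint protein BubR1, was 10.50, 10.48 and 10.41 on the nontreated arrays, 10.03, 10.00 and 10.00 with curdlan for 2 h, 9.68, 9.74 and 9.71 with curdlan for 4 h, 10.09, 10.08 and 10.06 with curdlan and FK506 for 2 h, and 9.94, 10.00 and 9.97 with both for 4 h. The curdlan 4 h arrays were the lowest and the nontreated arrays the highest, and the groups treated for 2 h and the FK506 4 h group lay close together between them. Bub1b fell by 0.75 on the log2 scale (SE 0.04, limma adjusted p = 2.5e-09). For Ttk, the kinase Mps1 at the head of the checkpoint, the log2 level was 8.02, 8.48 and 8.34 on the nontreated arrays, 7.81, 7.82 and 7.62 with curdlan for 2 h, 7.61, 7.56 and 7.53 with curdlan for 4 h, 7.93, 7.89 and 7.99 with curdlan and FK506 for 2 h, and 7.43, 7.63 and 7.60 with both for 4 h. The 3 nontreated values of Ttk were spread widely, with replicate 1 lowest, yet all lay above every treated array. The log2 fold change of Ttk at 4 h was -0.72 ± 0.10 (limma adjusted p = 5.06e-05). Bub1 (-0.50 ± 0.05) and Mad2l1 (-0.47 ± 0.05), the other checkpoint components, were lower at the adjusted p alone.

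Among genes of entry into mitosis, Foxm1 and Cdc25c fell and the cyclins and Cdk1 moved less. Foxm1 is a transcription factor that activates many G2 and M genes, and its log2 level was 10.33, 10.38 and 10.37 on the nontreated arrays, 10.07, 10.16 and 10.17 with curdlan for 2 h, 9.63, 9.62 and 9.60 with curdlan for 4 h, 10.07, 10.09 and 10.08 with curdlan and FK506 for 2 h, and 9.72, 9.71 and 9.64 with both for 4 h. The groups at 2 h overlapped each other for Foxm1, and both groups at 4 h lay below them. Its log2 fold change with curdlan for 4 h was -0.74 ± 0.04 (limma adjusted p = 3.74e-09). Cdc25c, the phosphatase that activates Cdk1, fell by 0.63 on the log2 scale (SE 0.08). For Cdk1 itself the log2 level was 11.52, 11.54 and 11.48 on the nontreated arrays, 11.52, 11.51 and 11.50 with curdlan for 2 h, 11.04, 11.06 and 10.99 with curdlan for 4 h, 11.54, 11.51 and 11.51 with curdlan and FK506 for 2 h, and 11.04, 11.16 and 11.04 with both for 4 h. Cdk1 overlapped the nontreated arrays in both groups at 2 h and lay below them in both groups at 4 h, by 0.48 ± 0.04 with curdlan (limma adjusted p = 4.96e-07). Ccna2 (-0.56 ± 0.05) and Ccnb2 (-0.39 ± 0.04), cyclins that pair with Cdk1, were lower at the adjusted p alone.

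Centrosome and spindle assembly genes fell in 3 of 6 cases (4.15% of all genes). Plk1, the Polo kinase of mitosis, had log2 levels of 11.42, 11.47 and 11.52 on the nontreated arrays, 11.21, 11.21 and 11.27 with curdlan for 2 h, 10.81, 10.75 and 10.71 with curdlan for 4 h, 11.23, 11.22 and 11.19 with curdlan and FK506 for 2 h, and 10.89, 10.91 and 10.81 with both for 4 h. The groups at 2 h overlapped each other, and those at 4 h were lower than all others. The fall of Plk1 at 4 h was 1.64-fold (log2 fold change -0.71 ± 0.04, limma adjusted p = 1.69e-08). Aurka, the centrosomal Aurora kinase, and Nek2, a kinase of centrosome separation, fell with log2 fold changes of -0.61 each, close to the threshold. Tpx2 (-0.44), Spag5 (-0.53) and the spindle motor Kif11 (-0.47) were lower at the adjusted p alone.

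In the centromere and kinetochore group 2 of 6 members fell (4.15% of all genes). Ndc80, which with Nuf2 holds the microtubule end, fell by 0.70 on the log2 scale (SE 0.04), and Kif2c, a motor that takes microtubules apart, had a log2 fold change of -0.59 ± 0.06. Nuf2 (-0.57) and Cenpf (-0.56) lay just outside the fold threshold, as did Cit (-0.58), Ccna2 (-0.56) and Prc1 (-0.56) of other roles. Kif2c (-0.59), Kif20a, Nek2 and Aurka (-0.61 each) lay just inside it, so that the count of 13 depends on where that line is drawn. The centromeric histone Cenpa differed least in this group (-0.18 ± 0.04).

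Midzone and cytokinesis genes fell in 3 of 7 cases (4.15% of all genes), with a median of -0.58. Kif23 and Racgap1 together form centralspindlin, which sets the site of cleavage. The log2 level of Kif23 was 10.92, 10.99 and 11.07 on the nontreated arrays, 10.77, 10.84 and 10.75 with curdlan for 2 h, 10.27, 10.24 and 10.29 with curdlan for 4 h, 11.10, 11.01 and 11.11 with curdlan and FK506 for 2 h, and 10.48, 10.48 and 10.55 with both for 4 h. For Kif23 the group with FK506 at 2 h reached above the nontreated arrays in part, and curdlan 4 h lay lowest, with FK506 4 h next. Kif23 had a log2 fold change of -0.73 ± 0.05 at 4 h (limma adjusted p = 2.83e-08) and Racgap1 one of -0.69 ± 0.04 (limma adjusted p = 3.69e-09). The midzone motor Kif20a fell as well, and Prc1, Kif4, Anln (anillin) and Cit (citron kinase) were lower by 0.44 to 0.58 at the adjusted p alone.

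Of the 4 genes of anaphase and the APC/C none fell with limma at 4 h, and 3 did not pass at the adjusted p alone either. Espl1 (separase, which cuts cohesin) was 1.39-fold lower at the adjusted p alone, whereas Ube2c, an E2 enzyme of the APC/C, differed by -0.05 ± 0.04 (95% interval -0.13 to 0.03) and Pttg1 (securin, the inhibitor of separase) by 0.06 ± 0.05 (-0.05 to 0.18). Cdc20, the APC/C activator that the checkpoint holds back, had log2 levels of 9.58, 9.59 and 9.64 on the nontreated arrays, 10.04, 10.11 and 9.95 with curdlan for 2 h, 9.60, 9.59 and 9.52 with curdlan for 4 h, 9.61, 9.62 and 9.71 with curdlan and FK506 for 2 h, and 9.40, 9.38 and 9.30 with both for 4 h. The curdlan 2 h arrays stood above all others, the curdlan 4 h arrays overlapped the nontreated ones, and the FK506 4 h arrays were the lowest. Cdc20 was the single member higher after 2 h of curdlan at the adjusted p alone (0.43 ± 0.05, 1.35-fold, limma adjusted p = 2.24e-05, where 7.19% of all genes were higher), and its difference from nontreated cells at 4 h was -0.03 ± 0.05 (95% interval -0.14 to 0.07).

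The proliferation marker Mki67 and the DNA decatenating enzyme Top2a moved less than most members. Mki67 had log2 levels of 11.75, 11.93 and 11.92 on the nontreated arrays, 11.88, 11.92 and 11.85 with curdlan for 2 h, 11.66, 11.66 and 11.63 with curdlan for 4 h, 11.91, 11.92 and 12.00 with curdlan and FK506 for 2 h, and 11.74, 11.77 and 11.77 with both for 4 h. The curdlan 4 h arrays lay below all others, whereas the FK506 4 h arrays overlapped the nontreated ones, and the difference at curdlan 4 h was -0.22 ± 0.05 (limma adjusted p = 0.00285). Top2a had log2 levels of 11.18, 11.47 and 11.51 on the nontreated arrays, 11.43, 11.38 and 11.08 with curdlan for 2 h, 11.03, 11.05 and 11.08 with curdlan for 4 h, 11.48, 11.40 and 11.47 with curdlan and FK506 for 2 h, and 11.03, 11.18 and 11.09 with both for 4 h. For Top2a the 2 outlying arrays were the lowest of their groups by a wide margin, and its difference at 4 h was -0.33 ± 0.09 (limma adjusted p = 0.0126). A second and dim Top2a probe set (mean log2 level 4.79, against 11.3 for the one used) gave 0.17 ± 0.16.

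**Figure D2:**
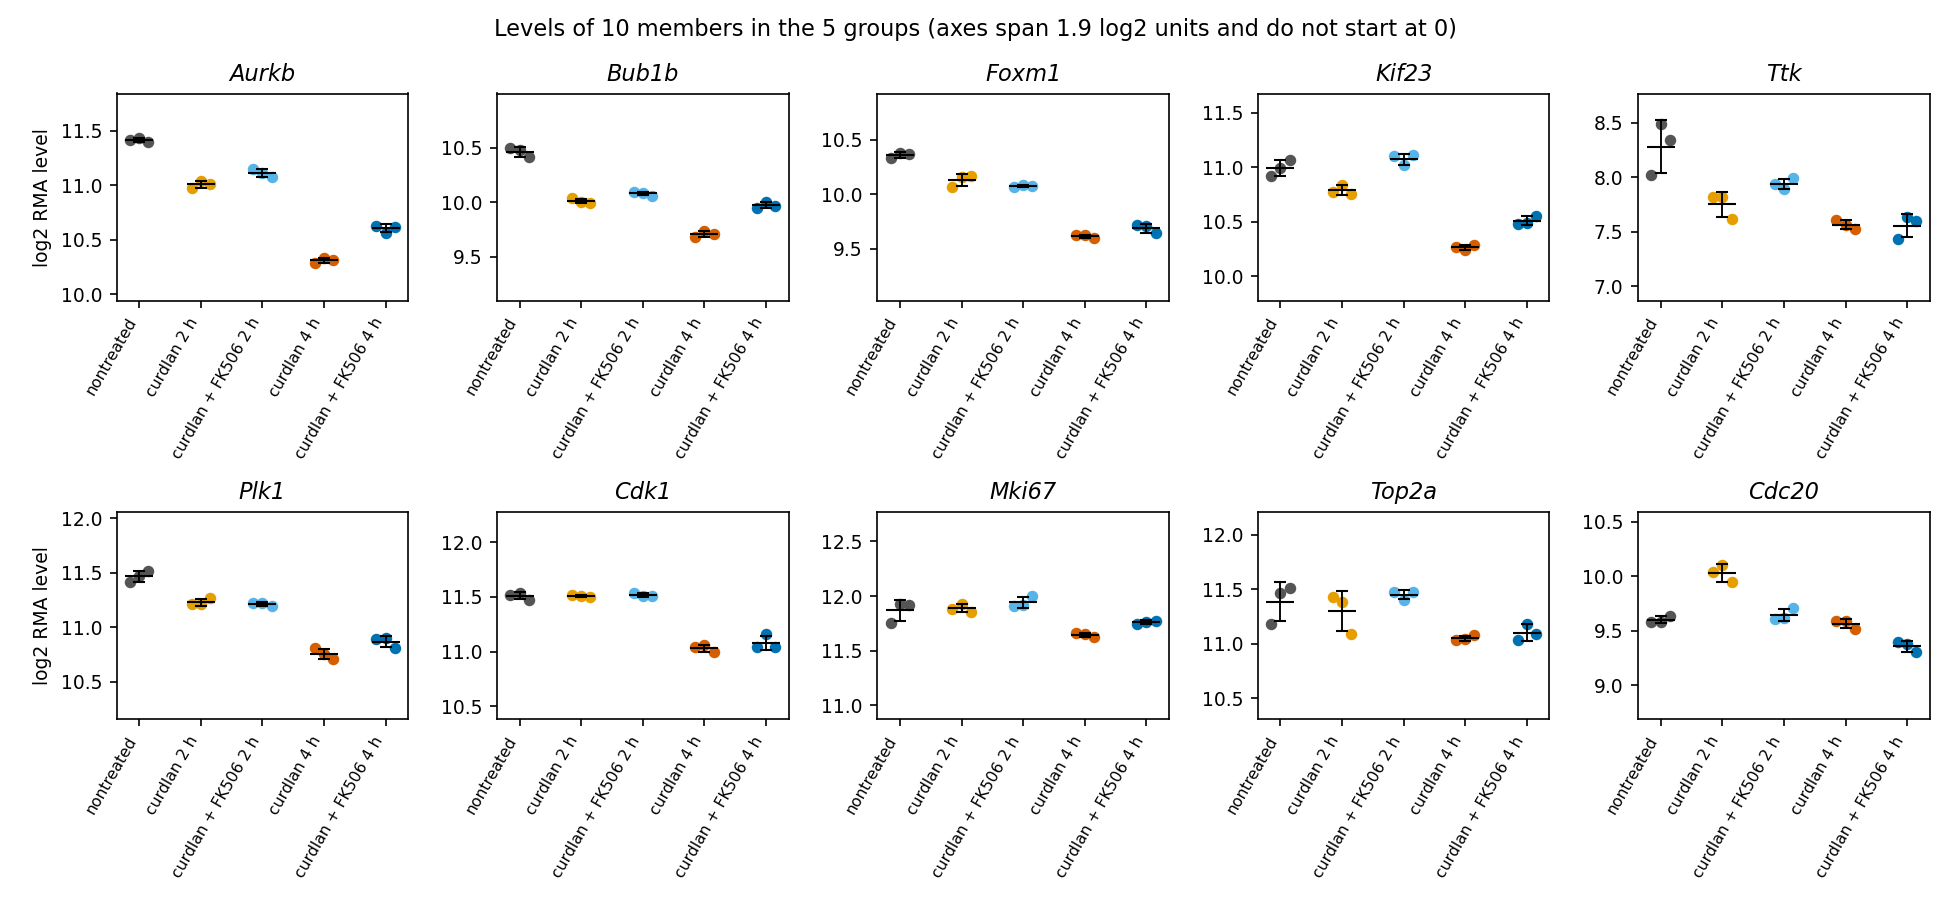
Log2 RMA level (vertical axes, each spanning 1.9 units and not starting at 0) of 10 members by group, where each point is 1 array and black bars are the group mean and SD (n = 3). Aurkb separated all 5 groups, and Cdc20 peaked in the curdlan 2 h group at 9.95 to 10.11. The arrays with FK506 at 2 h overlapped the nontreated ones for Cdk1, Kif23, Mki67, Top2a and Cdc20.

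At 2 h of curdlan the changes had begun but were small. No member had fallen by 1.5-fold with limma, where 1.40% of all genes had, and 21 of 37 were lower at the adjusted p alone (12.9% of all genes), with 27 at an unadjusted p under 0.05 in either direction (28.1% of all genes). The count of 21 was 8 with the arrays centred on the median of the tested genes, 26 without the 2 outlying arrays and 30 with array weights. The median over members was -0.17, against -0.04 for all genes. The largest differences were those of Ttk (-0.53 ± 0.10), Kif2c (-0.51 ± 0.06) and Bub1b (-0.45 ± 0.04), none of which reached the fold threshold. The count of fallen members was 1 in place of 0 without nontreated replicate 1 and also without both outlying arrays. Members differed in when they passed. Cdk1 (-0.01 ± 0.04), Mki67 (0.02 ± 0.05) and Kif4 (0.06 ± 0.09) did not pass at 2 h, whereas all 3 passenger complex genes and 4 of 6 kinetochore genes did at the adjusted p alone. From 2 h to 4 h of curdlan Aurkb alone fell by the fold rule (1.30% of all genes), by a further 0.70 on the log2 scale (SE 0.04, limma adjusted p = 2.06e-08). In that step 31 members were lower at the adjusted p alone (13.7%), with a median of -0.32 (all genes -0.07), and those that did not pass were Ttk, Cenpa, Kif2c, Ube2c, Pttg1 and Top2a. Without the 2 outlying arrays 34 were lower, and with centred arrays 21. For Kif2c most of the difference was already present at 2 h (-0.51, and -0.09 ± 0.06 from then to 4 h), while for Cdk1 it came between 2 h and 4 h (-0.48 ± 0.04).

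The effect of FK506 was read as cells given curdlan and FK506 minus cells given curdlan alone, so that a positive value is a higher level with the drug. At 4 h no member passed the test with the fold of 1.5, where 1.75% of all genes did in either direction, and 22 of 37 had an unadjusted p under 0.05 (20.1% of all genes). At the adjusted p alone 14 members were higher with FK506 (5.64% of all genes) and 2 were lower (6.03%). The 95% intervals of all members lay between -0.35 and 0.43, so that differences of 1.5-fold were outside each of them. Espl1 had the largest difference of the 14 (0.35 ± 0.04, limma adjusted p = 1.9e-05), followed by Aurkb (0.29 ± 0.04, adjusted p = 0.000145), Bub1b (0.26 ± 0.04), Kif20a (0.25 ± 0.04) and Kif23 (0.24 ± 0.05). Of the midzone and cytokinesis genes 6 of 7 were among them, and of the spindle assembly genes 0 of 6, where 5.64% of all genes were. The direction did not differ between these roles. All 7 midzone and cytokinesis values were positive (0.07 to 0.25), and so were all 6 spindle assembly values (0.05 to 0.11). The 2 that were lower with FK506 were Cdc20 (-0.21 ± 0.05) and Pttg1 (-0.24 ± 0.05), both of the anaphase group. Foxm1 (0.07 ± 0.04), Cdk1 (0.05 ± 0.04) and Ttk (-0.01 ± 0.10) did not pass. The count of 14 higher members was 3 with the arrays centred on the median of the tested genes, 19 without the 2 outlying arrays and 23 with array weights.

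**Figure D3:**
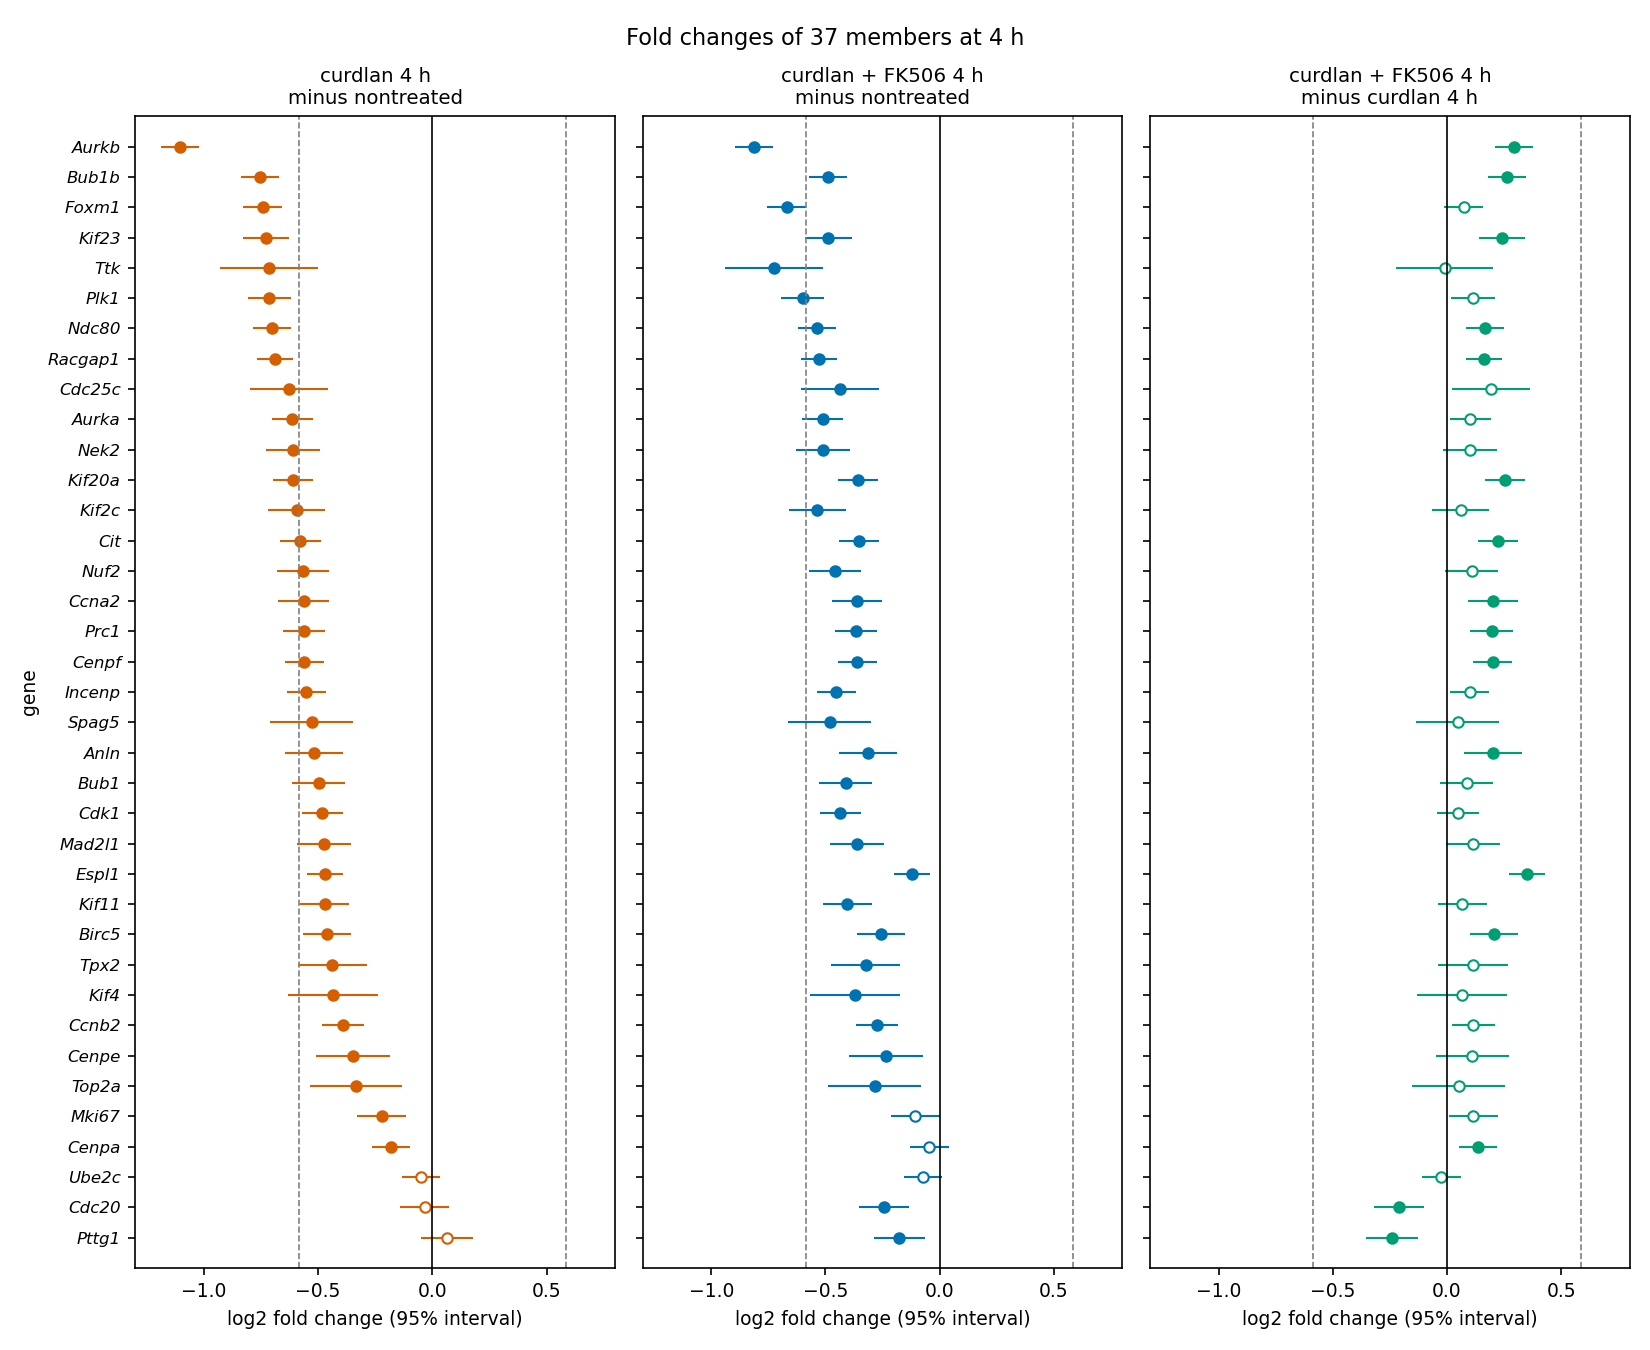
Log2 fold change (horizontal axes) of the 37 members at 4 h with 95% intervals from limma, for curdlan against nontreated cells, curdlan with FK506 against nontreated cells, and curdlan with FK506 against curdlan. Filled points had an adjusted p under 0.05, dashed lines mark a 1.5-fold change, and the points of the right panel lay between -0.24 and 0.35, inside both dashed lines.

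At 2 h FK506 likewise moved no member by the fold rule (1.12% of all genes in either direction, with 17 members at an unadjusted p under 0.05, beside 19.6% of all genes). At the adjusted p alone 9 members were higher with FK506 (4.48% of all genes), namely Aurka, Incenp, Cenpa, Cenpf, Kif2c, Espl1, Prc1, Kif23 and Cit, and Cdc20 was lower (-0.39 ± 0.05, limma adjusted p = 0.000185, where 3.09% of all genes were lower). The count of 9 was 6 with centred arrays, 11 without the 2 outlying arrays and 17 with array weights. Cdc20, which was 0.43 above nontreated cells with curdlan alone, was 0.04 ± 0.05 above them with FK506 and did not pass. Kif23 was 0.29 ± 0.05 higher with FK506 at 2 h. The change of the FK506 effect from 2 h to 4 h, tested as an interaction, passed in 0 members by the fold rule (1.23% of all genes in either direction) and in 0 at the adjusted p alone with limma (4.37%), with 9 at an unadjusted p under 0.05 (17.5% of all genes). This 0 depended on the processing, since 4 members were higher at the adjusted p alone with quantile normalization repeated over the tested genes, 5 without the 2 outlying arrays, and 9 higher and 1 lower with array weights. The largest interaction was that of Anln (0.26 ± 0.08, adjusted p = 0.11), and those of Aurkb and Bub1b were 0.19 ± 0.05 each. The members' intervals for the interaction lay between -0.50 and 0.44.

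Set against nontreated cells, the members were still lower in the presence of FK506. With curdlan and FK506 for 4 h, 4 of 37 had fallen by the fold rule (2.43% of all genes) and 34 were lower at the adjusted p alone (15.7%), Cenpa, Ube2c and Mki67 being those that did not pass. The median was -0.37, against -0.08 for all genes. The 4 were Aurkb (-0.81 ± 0.04, limma adjusted p = 2.19e-09), Ttk (-0.73 ± 0.10), Foxm1 (-0.67 ± 0.04) and Plk1 (-0.60 ± 0.04), and the fall of Plk1 was lost without nontreated replicate 3 (-0.58) or without FK506 4 h replicate 3 (-0.57). Without the 2 outlying arrays 6 had fallen, with array weights 7 and with centred arrays 3. The count of 34 at the adjusted p alone was 25 with centred arrays, 34 without the 2 outlying arrays and 37 with array weights. At 2 h with FK506 no member had fallen by the fold rule (0.537% of all genes), 16 had an unadjusted p under 0.05 (31.5% of all genes), 10 were lower at the adjusted p alone (10.0%), and the member median (-0.10) was close to that of all genes (-0.08). This count of 10 was 2 with centred arrays, 21 without the 2 outlying arrays, 22 with repeated quantile normalization and 23 with array weights. The closeness of the medians also depended on the processing. Members and all genes had medians of 0.01 and 0.03 with centred arrays, and of -0.13 and -0.04 without the 2 outlying arrays. They were -0.15 and -0.02 with repeated quantile normalization, and -0.13 and -0.04 with array weights. Between 2 h and 4 h with FK506, 0 members fell by the fold rule (0.782% of all genes) and 36 had an unadjusted p under 0.05 (21.5%). At the adjusted p alone 33 were lower (8.64%), or 21 with centred arrays and 35 without the 2 outlying arrays. Kif23 was the nearest to the threshold in that step (-0.57 ± 0.05), and its 1.48-fold difference was followed by Aurkb (-0.51 ± 0.04). The comparisons with curdlan alone and with nontreated cells share arrays, so that their values for 1 gene are not independent of each other.

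Other genes of the cell cycle were counted in the same way. At curdlan 4 h 4.15% of all genes had fallen and 5.05% had risen, with a median of -0.12. Of 91 measured further mitosis genes 29 had fallen and 1 had risen after 4 h of curdlan, with a median of -0.46. The largest falls were those of Arhgap19 (-2.17), Ncapd3, a condensin subunit (-1.11), Pimreg (-0.98) and the microtubule-associated Ckap2 (-0.95), and the gene that rose was Cdc27, an APC/C subunit (0.69). Arhgap19 differed from the 37 members in that it rose with FK506 by the fold rule, by 1.52 at 4 h (limma adjusted p = 4.43e-11), with an interaction of 1.26 (limma adjusted p = 3.8e-08). Of 46 measured genes of DNA replication and the G1/S step 29 had fallen and 0 had risen, with a median of -0.69, led by the replication licensing factors Cdc6 (-1.41) and Cdt1 (-1.31), thymidine kinase Tk1 (-1.20) and the polymerase subunit Pold1 (-1.11). Regulators of cell cycle genes went in both directions, with 14 of 49 fallen and 7 risen and a median of -0.15. The transcription factors Mxd3 (-1.21), E2f2 (-1.02), E2f1 (-0.93) and E2f8 (-0.88) fell most. The stress and growth arrest genes Gadd45b (3.59), Plk3 (2.56), Plk2 (2.16) and Btg2 (1.26) rose most, and of these Plk2 (-1.31) and Plk3 (-1.24) were lower with FK506 at 4 h by the fold rule.

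**Figure D4:**
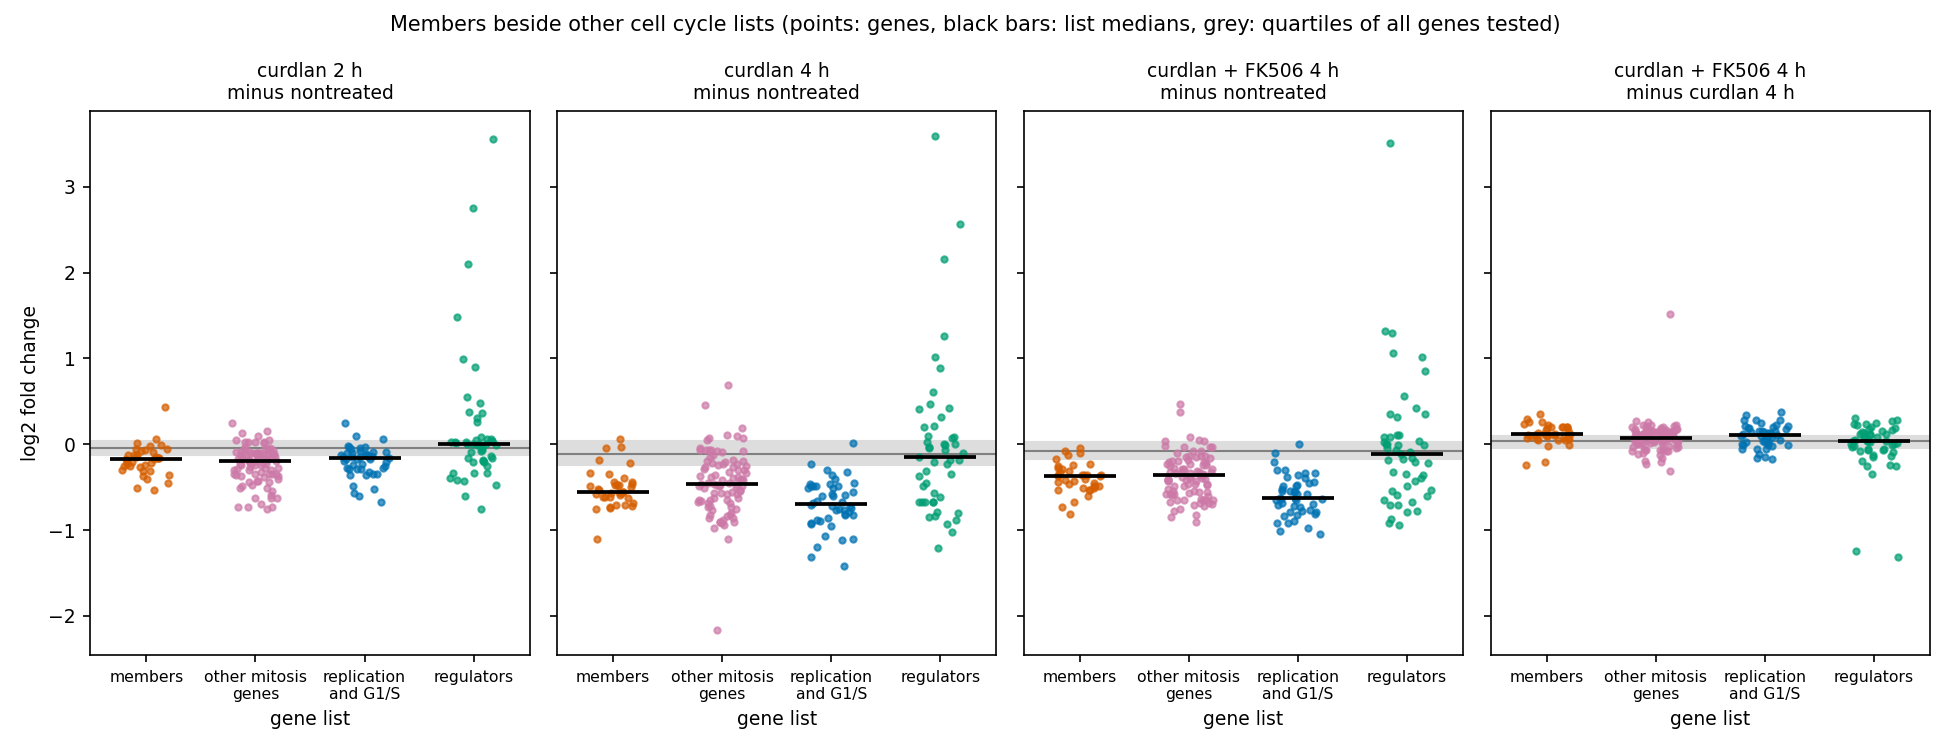
Log2 fold change (vertical axis) of each measured gene of the members, of further mitosis genes, of DNA replication and G1/S genes and of regulators of cell cycle genes, in 4 comparisons, where black bars are list medians and the grey band holds all genes tested between their lower and upper quartile. At curdlan 4 h the medians were -0.55, -0.46, -0.69 and -0.15.

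Members with and without these promoter elements were also compared, as a description. The 22 measured members with a CHR in the promoter had a median log2 fold change of -0.52 at curdlan 4 h (8 of them had fallen), and the 8 without one had a median of -0.49 (1 had fallen). Of all genes, 4.15% had fallen. For the CCAAT box the medians were -0.49 with (22 members) and -0.54 without (8 members). Cdc20 and Ube2c, which did not pass at 4 h, held both elements, whereas Pttg1, which did not pass either, held neither. Kif23 and Ttk, which had fallen, held both. Aurkb, Foxm1, Cdc25c and Kif20a had fallen too, but had no promoter to search and are missing from these groups.

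**Figure D5:**
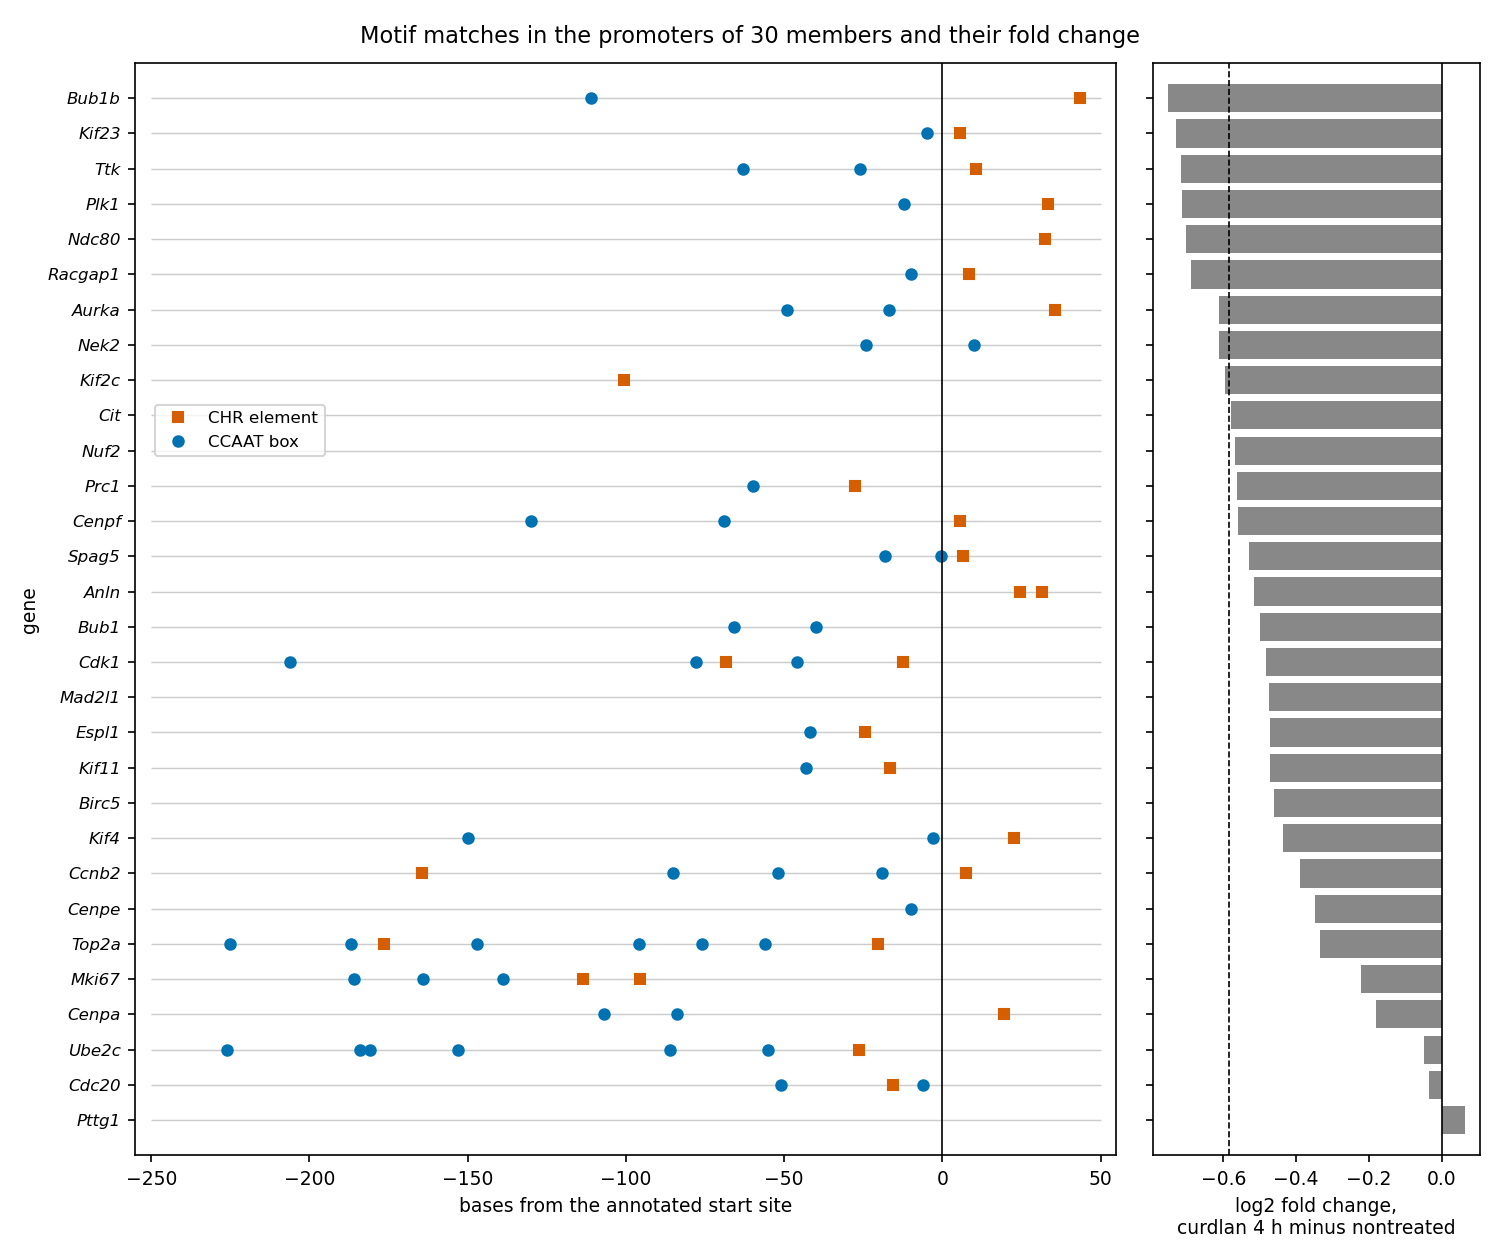
Positions of CHR (squares) and CCAAT (circles) matches relative to the annotated start site (horizontal axis, in bases) in the promoters of the 30 measured members with a promoter in the table, with 1 of the promoters of Prc1 drawn, and at right the log2 fold change of each gene at curdlan 4 h (bars, dashed line at 1.5-fold). The CHR matches of Kif23 (-0.73) and of Cdc20 (-0.03) both lay near the start, whereas those of Kif2c and Mki67 lay further before it and some members had none.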

How the data were processed

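The authors deposited log2 intensities of 34760 probe sets, computed per the labels by RMA with affy in R 2.15.2, a method that quantile-normalizes the arrays and so hides a change common to all genes. Probe sets with exactly 1 symbol in the platform annotation (21640, against 1321 with several and 11799 with none here) were tested, the brightest of each gene, which gave 19937 genes. limma 3.58.1 in R 4.3.3 was fitted with 1 mean per group over all 15 arrays (10 residual degrees of freedom) with empirical Bayes moderation and two-sided tests, adjusted by Benjamini-Hochberg within each comparison. The median standard error was 0.05 for members and 0.08 for all genes, and the number of arrays limits the precision. The fit was tested on simulated data with independent noise of equal spread on every array. That test therefore did not cover outlying arrays or genes that vary together, as in these data. The labels call the 3 arrays of a group biological replicates without naming separate cultures, so p-values measure the spread between these samples.

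The members and gene lists were chosen with earlier results of these data known, the members by name and by no measured value. All members may be named by role. Values of every array are given for the 6 largest falls at curdlan 4 h, up to 3 fallen members of other comparisons, and a fixed panel (Cdk1, Plk1, Aurkb, Cdc20, Mki67, Top2a, Foxm1). From other lists, up to 4 called genes each way at 4 h are named. Replicate numbers were not used as pairs in the main fit, since the labels do not say whether arrays of 1 number belong together. With the group means removed, arrays of number 3 exceeded a correlation of 0.1 in 1 of 10 pairs, those of number 2 in 5 and those of number 1 in 3. The correlations ranged from -0.73 to 0.58. With 3 arrays per group and 2 outlying arrays they could not decide on pairing. Alternatives covered scaling, array weights, dim genes, probe sets, thresholds, groups in the fit, the replicate number as a block, and leaving out arrays. Promoters came from RefSeq (GRCm38.p6), searched in Python 3.11.15.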

Additional observations from a re-analysis of the deposited data

Results flagged for a closer look

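Arhgap19, of the further mitosis genes, stood out because the FK506 effect at 4 h differed from that at 2 h by 1.26 on the log2 scale (limma adjusted p = 3.8e-08). No mitosis and spindle gene passed this test, and groups of 3 arrays are too small for an outlier test.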

How the results depend on the processing

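Each count of members was recomputed under 25 alternatives, 15 of which leave out 1 array. For curdlan 4 h against nontreated cells the 13 falls became 7 with arrays centred on the median of the tested genes, 34 without the fold threshold, 18 with quantile normalization repeated over the tested genes, 19 with array weights and 18 without both outlying arrays. Aurkb, Bub1b, Foxm1, Kif23, Ttk, Plk1 and Ndc80 were called in all 25. Centring lost Cdc25c, Aurka, Nek2, Kif2c, Kif20a and Racgap1. Leaving out nontreated replicate 2 lost Cdc25c, Nek2, Kif2c and Kif20a, leaving out nontreated replicate 3 lost Cdc25c and Kif2c, and leaving out curdlan 4 h replicate 1 lost Kif2c. Curdlan 2 h, with 0 falls, gave 1 with array weights, 1 without both outlying arrays and 21 without the fold threshold, and 0 to 1 when 1 array was left out, the 1 coming without nontreated replicate 1. Without the fold threshold the counts were 31 for curdlan 4 h against 2 h (1 with it), 10 for curdlan with FK506 at 2 h against nontreated cells (0), 34 for the same at 4 h (4, and 7 with array weights), 33 for FK506 4 h against FK506 2 h (0), 1 lower and 9 higher for FK506 at 2 h against curdlan (0 and 0), 2 lower and 14 higher for FK506 at 4 h (0 and 0), and 1 higher for curdlan 2 h (0). FK506 4 h against FK506 2 h gave 1 with centred arrays and 0 to 1 when 1 array was left out, the 1 coming without FK506 2 h replicate 2 or without FK506 4 h replicate 3. With the replicate block 13 members fell at curdlan 4 h, and no count of fallen members changed by over 1.5 times. At the adjusted p alone the interaction gave 0 higher, but 9 with array weights and 5 without both outlying arrays. The cause of these shifts was not tested. Of the values of single genes under alternatives, 530 kept direction and call, 16 lost the call, 4 gained it and 0 reversed. This tally covered only members called in a comparison, with Cdk1, Mki67 and Top2a at curdlan 4 h and Cdc20 at curdlan 2 h added. Other members just outside the threshold could therefore not gain a call in it. The 4 gains were those of the added values without the fold threshold, and were fixed in advance since these values already passed at the adjusted p alone. At curdlan 4 h Nuf2 was called under 6 of the 25 alternatives, and Ccna2 and Prc1 under 5 each.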

Other observations

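Among the regulators of cell cycle genes, Myc, the proto-oncogene of growth, and Mybl2, which works with the MuvB complex at CHR promoters, were chosen for mention after their values were seen. Myc was 0.89 higher on the log2 scale after 2 h of curdlan and 0.08 higher after 4 h (limma adjusted p = 0.115 at 4 h). Mybl2 differed from nontreated cells by -0.62 at 4 h of curdlan and by -0.87 at 4 h with FK506, and was lower with FK506 than with curdlan alone at 4 h (-0.25, limma adjusted p = 0.00316), where 14 of the 37 mitosis and spindle genes were higher.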
